A study of Mus musculus with 163 samples.

Results

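The 10 genes followed here belong to the Bcl-2 family and were measured in single cochlear hair cells of the mouse. They were taken from a list of names: the effectors Bax and Bak1, the BH3-only genes Bid, Bad, Bbc3, Pmaip1 and Bcl2l11, and the pro-survival genes Bcl2, Bcl2l1 and Mcl1. These are 10 of the 55291 genes in the count table, and 9 of them had a read in at least 1 cell. The cells were picked by hand for red fluorescence from digested cochleae at postnatal day 7 and sequenced with a full-length, polyA-primed Smart-Seq method. Control cells came from mice with the genotype Atoh1P2A-Tdtomato/+ and comprised 43 outer hair cells (OHCs) and 38 inner hair cells (IHCs). Mutant cells, from Atoh1P2A-Cre/P2A-Tdtomato mice that were also Rbm24flox/flox, comprised 56 OHCs and 26 IHCs. Rbm24 encodes an RNA-binding protein that regulates splicing. Deletion was driven by Cre made from the Atoh1 locus, so it covers the cells in which that hair cell gene is active. The controls carried 1 modified Atoh1 allele and no Cre, so the effects of Cre, of the second modified Atoh1 allele and of Rbm24 loss cannot be told apart. The animal behind each cell is not given, nor is the way in which a picked cell was assigned to the inner or outer group.

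Proteins of the Bcl-2 family set whether the outer mitochondrial membrane stays closed. Bax and Bak1, once active, form pores through which cytochrome c leaves the mitochondrion and starts the caspase cascade. The pro-survival proteins Bcl-2, Bcl-xL (from Bcl2l1) and Mcl-1 hold the effectors and their activators in check, and the BH3-only proteins answer stress signals by binding the pro-survival proteins or by activating the effectors directly. Much of this control acts on the proteins, by phosphorylation, cleavage, relocation and turnover, so transcripts give the supply of each part and not its activity. In the cochlea the pathway is known from the loss of hair cells after aminoglycosides, cisplatin and noise.

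Each group is treated as 1 sample, because cells are not replicates, and no test was made. Levels are counts pooled over a group and given per 1000000 counts of that group (CPM), with an exact Poisson 95% interval, and ratios have an exact conditional binomial 95% interval. Reads carry no molecular identifiers, so all intervals and floors cover counting error only. Cells held 5467115 to 18072166 counts. The median share of mitochondrially encoded counts was 6.04% in control OHCs and 7.52% in control IHCs, and 4.36% in mutant OHCs and 4.77% in mutant IHCs. Cells with Y-linked transcripts and no Xist are called male here and cells with Xist female, at a limit of 1 CPM. Males were 32 of 43 controls but 16 of 56 mutants among OHCs, and 26 of 38 controls but 7 of 26 mutants among IHCs. Females were 11 control and 37 mutant OHCs, and 12 control and 19 mutant IHCs. Some mutant OHCs fall in neither set, and levels over all cells include them. The genotypes thus differ in sex make-up. Values within each sex are given for most members and for some of the other genes that were called, with a count of shared directions for all of the latter. Rbm24 was at 315 and 430.5 CPM in control OHCs and control IHCs and at 0.212 and 1.51 CPM in the mutant groups. Summed hair cell markers (Myo7a, Pou4f3, Gfi1, Myo6, Otof and Pvalb) were at 3370 CPM or more in all 163 cells. Outer hair cell markers were Slc26a5, Ocm, Ikzf2, Chrna10 and Sri, and inner hair cell markers were Slc17a8, Tbx2, Fgf8, Slc7a14 and Dnajc5b. The outer sum had a median of 5710 CPM in control OHCs, 677 CPM in mutant OHCs and 674 CPM in control IHCs. Its make-up differed, since Ocm was at 4950 CPM in control OHCs and 18.6 CPM in mutant OHCs. Mutant OHCs and control IHCs had 27.5 and 0.64 CPM of Slc26a5 and 39.9 and 4.6 CPM of Ikzf2. They had 494 and 260 CPM of Chrna10, 155 and 423 CPM of Sri, and 18.6 and 34.2 CPM of Ocm. The inner sum had a median of 1140 CPM in control IHCs, 520 CPM in mutant IHCs and 53.3 CPM in mutant OHCs. Summed neuron markers had medians of 292 and 511 CPM in control and mutant OHCs and 577 and 914 CPM in control and mutant IHCs, mostly from Nefl and Snap25, with Prph and Scn9a at 0 in all 4 groups. Summed immune markers had medians of 106 and 237 CPM in OHCs and 125 and 241 CPM in IHCs, nearly all from C1qb, with Ptprc, Cd74, C1qa, Csf1r and Lyz2 at group levels of 1.14 CPM or less. The part of these markers in the genotype ratios was not tested.

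Among the effectors, Bax (ENSMUSG00000003873.11, chr7:45461697-45466898, minus strand, mm10) was found in nearly every cell and was higher in both mutant groups. The group level was 51.8 CPM (51.1 to 52.5) in control OHCs and 96.6 CPM (95.9 to 97.3) in mutant OHCs. In IHCs the Bax level was 57.9 CPM (57.1 to 58.7) for control cells and 108.6 CPM (107.5 to 109.7) for mutant cells. Single control OHCs ran from 0.103 CPM of Bax over a median of 58.6 to 156 CPM, and mutant OHCs from 0.187 over 87.2 to 250.4 CPM. Control IHCs ran from 13.6 over a median of 50.9 to 144 CPM of Bax, and mutant IHCs from 33.1 over 116 to 183 CPM. The groups overlap in both cell types, but the lower quartile of mutant IHCs, 76.0 CPM of Bax, lies above the upper quartile of control IHCs, 72.8 CPM. The log2 ratio of mutant to control was 0.90 (0.88 to 0.92) in OHCs and 0.91 (0.88 to 0.93) in IHCs, or 1.87-fold and 1.88-fold. The OHC value minus the IHC value was -0.01 (-0.04 to 0.03), the smallest such gap among the 7 genes with reads in all 4 groups. Bax was higher in mutants within each sex as well: 49.5 against 80.3 CPM in male OHCs, 59.1 against 104 CPM in female OHCs, 54.9 against 126.5 CPM in male IHCs and 65.6 against 102 CPM in female IHCs. The ratio was below 2-fold over all cells, and it passed 2-fold in OHCs (log2 ratio 1.01) only when cells with supporting cell transcripts were left out, and in IHCs (1.20) among male cells and (1.27) among cells low in Gm15772, a pseudogene by which the cells of every group fall into a low and a high set.

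The bases before the Bax start are shown because Bax is the member with the like change in both cell types, and because they hold matches to 2 of 3 searched motifs. In each of 15 RefSeq promoter windows of 9 of the genes, the 250 bases before the start were searched on both strands for CACGTG (an E-box), TGATGNAA (the element bound by Atf4 with C/EBP partners) and the p53 half-site. The E-box was in 2 of the 15 windows and in 6.02% of all 32817 mouse windows of that length. The half-site was in 1 window, that of Bax, and in 7.12% of all windows, and the Atf4 element was in 0 windows, against 3.45% of all windows. In the Bax sequence (chr7:45466899-45467148, minus strand, RefSeq, GRCm38.p6, none of it exonic) capitals mark the half-site, which starts 201 bases before the start, and the E-box, which starts 9 bases before it.
Bax: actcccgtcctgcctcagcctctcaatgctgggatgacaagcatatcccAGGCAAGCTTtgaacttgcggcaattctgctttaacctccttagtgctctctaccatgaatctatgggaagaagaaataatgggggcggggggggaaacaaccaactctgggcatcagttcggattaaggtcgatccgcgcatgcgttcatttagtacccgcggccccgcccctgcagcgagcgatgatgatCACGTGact
These matches describe the letters only, since the data hold no measure of binding. Of Bax's 1.576 kb of exon, 12.2% is shared with the gene Gm45808 on the same strand, and how the authors' counting treated shared reads is not given.

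Bak1, the other effector (ENSMUSG00000057789.14, chr17:27019810-27029009, minus strand), was close to the lower end of what was measured. Its group level was 0.736 CPM in control OHCs, 0.172 CPM in mutant OHCs, 1.57 CPM in control IHCs and 0.894 CPM in mutant IHCs. The median cell had 0 reads of Bak1 in all 4 groups, and only 3 of 163 cells reached 10 CPM, all of them female control cells, at 14.4 to 30.0 CPM (1 control OHC and 2 control IHCs). Bak1 lay below the limit of 1 CPM for a 2-fold call in OHCs and was within 2-fold in IHCs (log2 ratio -0.81, -1.01 to -0.61). By sex, control and mutant IHCs had 3.85 and 1.05 CPM of Bak1 among female cells, past 2-fold, and 0.684 and 0.496 CPM among male cells. On the opposite strand, exons of Ggnbp1 overlap Bak1, and the strand setting of the counting is not given, so reads of the overlap cannot be assigned to either gene. Per kb of exon, Bax exceeded Bak1 in each group, with 32.8 against 0.306 CPM per kb in control OHCs, 61.3 against 0.0715 in mutant OHCs, 36.7 against 0.651 in control IHCs and 68.9 against 0.371 in mutant IHCs.

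**Figure D1:**
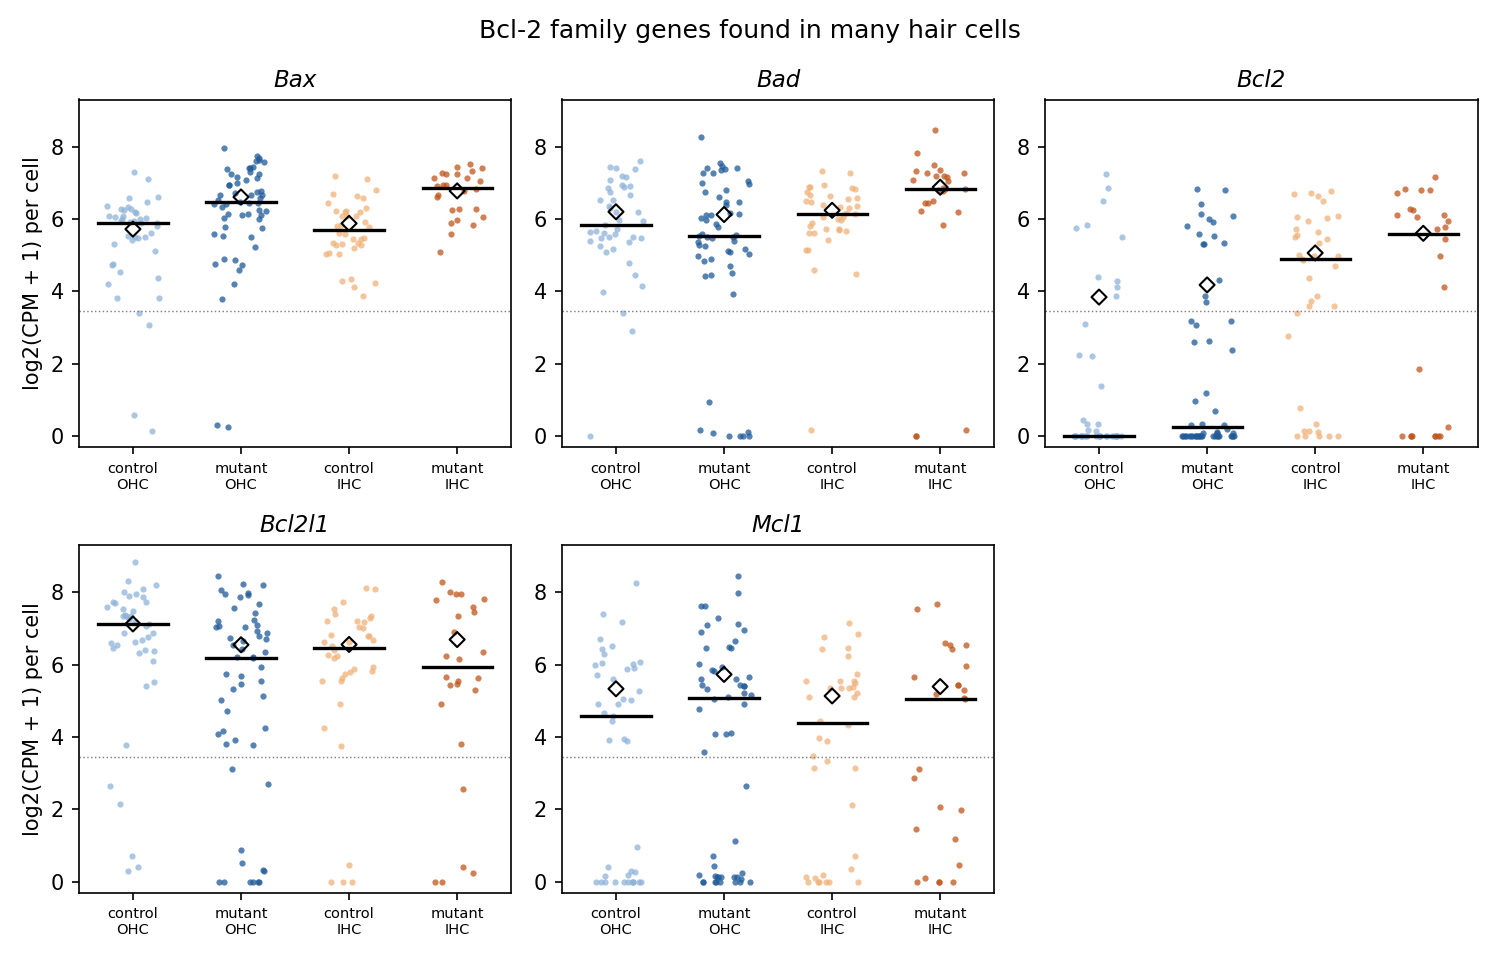
Level of the 5 genes found in many cells (Bax, Bad, Bcl2, Bcl2l1 and Mcl1), as log2(CPM + 1) per cell, in 43 control OHCs, 56 mutant OHCs, 38 control IHCs and 26 mutant IHCs. Each point is a cell, the bar is the median over cells, the open diamond is the group level and the dotted line marks 10 CPM; the Bax medians of both mutant groups, 87.2 and 116 CPM, lie above those of the controls, 58.6 and 50.9 CPM.

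Among the BH3-only genes, Bad was broad, Bid and Bbc3 were in a few cells of some groups, Bcl2l11 was nearly confined to 2 mutant IHCs, and Pmaip1 had 0 counts in every cell. Bad (ENSMUSG00000024959.14, chr19:6941861-6951899, plus strand) encodes a BH3-only protein that growth factor signalling keeps inactive through phosphorylation by Akt. Its group level was 72.5 CPM (71.7 to 73.4) in control OHCs and 68.7 CPM (68.1 to 69.3) in mutant OHCs, against 74.6 CPM (73.7 to 75.5) in control IHCs and 116.6 CPM (115.5 to 117.7) in mutant IHCs. Single cells ran from 0 CPM of Bad over a median of 56.6 to 192.5 CPM in control OHCs and from 0 over 45.6 to 306.5 CPM in mutant OHCs. In IHCs they ran from 0.136 CPM of Bad over 70.0 to 161 CPM in controls and from 0 over 114 to 348 CPM in mutants. The quartile ranges of the OHC groups overlap, and those of the IHC groups do too, though by less, with an upper quartile of 97.9 CPM in control IHCs and a lower quartile of 86.3 CPM in mutant IHCs. The log2 ratio of Bad was -0.08 (-0.10 to -0.06) in OHCs and 0.64 (0.62 to 0.67) in IHCs. In IHCs Bad was higher in mutants within each sex, at 73.9 against 118 CPM among male cells and 76.4 against 116 CPM among female cells. In OHCs it was 64.6 against 65.8 CPM and 98.8 against 72.2 CPM in the same sets. Exons of Gpr137, on the opposite strand, overlap 20.5% of the exon length of Bad.

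Bid (ENSMUSG00000004446.12, chr6:120891930-120916853, minus strand), whose protein is cut by caspase-8 and then activates the effectors, was a gene of a subset of control IHCs. It had 0 counts in 43 control OHCs, where the floor of 3 counts is 0.00751 CPM. In control IHCs it stood at 22.1 CPM (21.6 to 22.6), with 13 of 38 cells at 10 CPM or more (34.2%, exact binomial interval 19.6 to 51.4%), from 13.4 to 171 CPM of Bid. The median control IHC had 0 CPM of Bid, so the group level comes from a minority of cells, the highest of which gave 22.9% of the counts. In mutant IHCs Bid was at 0.773 CPM (0.685 to 0.869), with 1 of 26 cells at 10 CPM or more, at 21.4 CPM. In mutant OHCs all reads of Bid came from 1 of 56 cells, at 17.0 CPM. The log2 ratio of Bid in IHCs was -4.84 (-5.01 to -4.67), or 28.6-fold lower in mutants, and it was 25.8 against 0.298 CPM among male IHCs and 12.5 against 0.955 CPM among the female ones. Leaving out the top Bid cell on each side gave a log2 ratio of -7.31, because the 1 mutant IHC above 10 CPM held most of the Bid reads of its group. Control OHCs lay at least 2945-fold below control IHCs, with their sum of 0 set at 3 counts over the group.

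Genes of supporting cells were also uneven between these groups. Of the 8 supporting cell markers other than S100a1, which hair cells express too, 6 were at 1 CPM or more in control IHCs and 1 in mutant IHCs. Their sum ran from 0 over a median of 0.458 to 1160 CPM in control IHCs and from 0 over 7.97 to 59.0 CPM in mutant IHCs. Otog, Fabp7 and Gjb6 were at 0 in both mutant groups and Epyc was at 0 in both control groups. Of the 13 control IHCs with Bid at 10 CPM or more, the cell with the highest level (171 CPM) had 78.6 CPM of these markers, and the next (141 CPM of Bid) had 0. Over the 23 control IHCs and 14 mutant IHCs in which these markers summed to less than 10 CPM, the log2 ratio of Bid was -4.11. The part of sex make-up in this and the other ratios was not tested beyond the values given within each sex.

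Bid also shares 628 bases, 17.7% of its exon length, with the opposite-strand gene Bcl2l13, another relative of the family. Without a known strand setting, reads from this stretch cannot be assigned to either gene. Bcl2l13 was at 24.1 CPM in control IHCs and 24.6 CPM in mutant IHCs, and among the 13 Bid cells it ranged from 0 CPM upward, with 0 CPM in the cell at 141 CPM of Bid and 84.8 CPM in the cell at 171 CPM.

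Bbc3 (ENSMUSG00000002083.13, chr7:16308393-16318205, plus strand) encodes Puma, a BH3-only protein and a well-known target of p53 that binds all the main pro-survival proteins. Its group level was 3.98 CPM (3.79 to 4.18) in control OHCs, 3.97 CPM (3.83 to 4.12) in mutant OHCs, 0.195 CPM (0.152 to 0.247) in control IHCs and 13.6 CPM (13.3 to 14.0) in mutant IHCs. Bbc3 reached 10 CPM in 5 of 43 control OHCs (11.6%, 3.89 to 25.1%), in 7 of 56 mutant OHCs (12.5%, 5.18 to 24.1%), in 0 of 38 control IHCs, which allows a share of up to 7.89% (3 cells of 38; the exact binomial upper limit is 9.25%), and in 8 of 26 mutant IHCs (30.8%, 14.3 to 51.8%). The median cell had 0 CPM of Bbc3 in every group, and the highest control IHC, at 4.85 CPM, lay below each of the 8 mutant IHCs, which had 16.8, 23.5, 32.9, 36.9, 47.5, 47.5, 55.8 and 104 CPM. In IHCs the log2 ratio was 6.13 (5.78 to 6.49), 69.9-fold, with 0.270 against 15.5 CPM of Bbc3 among male cells and 0 against 12.9 CPM among female cells. In OHCs the log2 ratio over all cells was 0.00 (-0.09 to 0.09). That near-equal level hides an unlike make-up by sex: all 5 control OHCs with Bbc3 at 10 CPM or more were male, and among female OHCs the level was 0.0108 CPM in 11 controls and 4.03 CPM in 37 mutants, with 4 of the 37 at 10 CPM or more. Among male OHCs it was 5.18 against 4.32 CPM.

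The second window with an E-box belongs to Bbc3, the member with the largest 2-fold call that rests on reads in both groups of a genotype comparison. It lies before an internal start of the gene (chr7:16310181-16310430, plus strand, RefSeq, GRCm38.p6, none of it exonic), with the E-box in capitals, starting 64 bases before that start.
Bbc3: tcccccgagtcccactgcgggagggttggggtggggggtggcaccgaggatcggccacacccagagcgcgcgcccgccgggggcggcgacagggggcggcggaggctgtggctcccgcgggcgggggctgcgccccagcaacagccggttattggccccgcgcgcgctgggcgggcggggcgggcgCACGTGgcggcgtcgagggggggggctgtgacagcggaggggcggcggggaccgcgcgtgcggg
The windows before the other RefSeq starts of Bbc3 held no match to any of the motifs.

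Bcl2l11 (ENSMUSG00000027381.16, chr2:128126038-128162547, plus strand) encodes Bim, a direct activator of Bax that is needed for the death of many neurons deprived of trophic factors. It had 2 counts in control OHCs, 9 in mutant OHCs, 0 in control IHCs and 1175 in mutant IHCs (3.22 CPM, 3.04 to 3.41). Of the 26 mutant IHCs, 2 held it at 10 CPM or more, 1 female cell at 75.8 CPM and 1 male cell at 23.8 CPM, and the first gave 73.4% of the counts. The level in mutant IHCs was at least 374-fold that in control IHCs, with the control sum set at 3 counts over the group. Without the highest cell of each group, Bcl2l11 fell below the limit of 1 CPM. The same 2 cells had 10.7 and 21.1 CPM of the supporting cell markers other than S100a1, and no call of Bcl2l11 was left among cells in which those sum to less than 10 CPM. The cell at 23.8 CPM was also among the 8 with Bbc3 (47.5 CPM), and its Bcl2l1 was at 0.326 CPM.

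Pmaip1 (ENSMUSG00000024521.8) encodes Noxa, a p53 target that binds Mcl-1. With 0 counts in all 163 cells, its level was not detectable above 0.00751, 0.00416, 0.00861 and 0.00822 CPM in control OHCs, mutant OHCs, control IHCs and mutant IHCs.

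**Figure D2:**
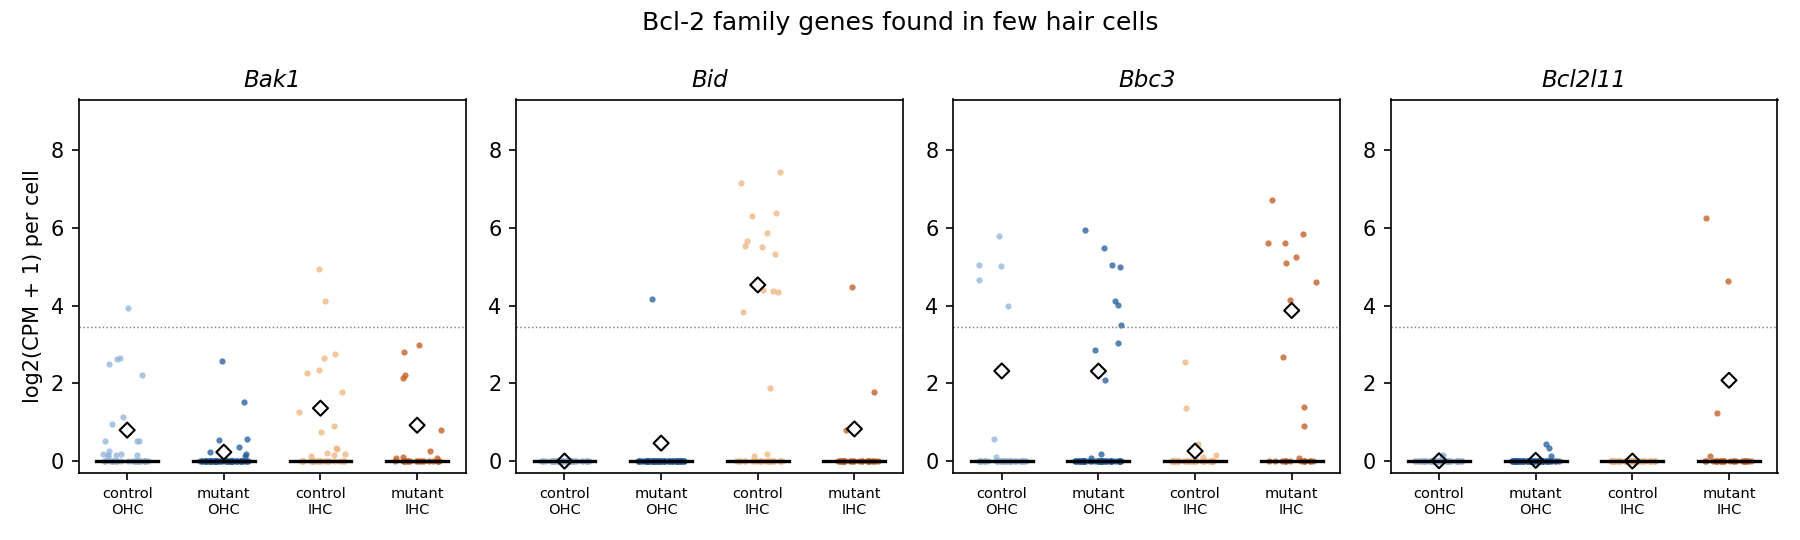
Level of the 4 genes found in few cells (Bak1, Bid, Bbc3 and Bcl2l11), as log2(CPM + 1) per cell in the same groups; Pmaip1 is at 0 in every cell and not drawn. Points, bars, diamonds and the dotted line at 10 CPM are as for the broad genes; 13 control IHCs carry Bid, 8 mutant IHCs carry Bbc3 and 2 mutant IHCs carry Bcl2l11 above that line.

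Among the pro-survival genes, Bcl2l1 (ENSMUSG00000007659.18, chr2:152780668-152831728, minus strand) was the highest in each group, also per kb of exon. Its protein Bcl-xL is the main pro-survival member of many mature neurons. The group level was 138 CPM (137.0 to 139) in control OHCs, 92.4 CPM (91.7 to 93.1) in mutant OHCs, 93.0 CPM (92.0 to 94.0) in control IHCs and 102 CPM (101 to 103) in mutant IHCs. Single control OHCs ran from 0.226 CPM of Bcl2l1 over a median of 138 to 455 CPM, and mutant OHCs from 0 over 71.9 to 346 CPM. Control IHCs ran from 0 over a median of 86.9 to 275.5 CPM, and mutant IHCs from 0 over 60.2 to 311 CPM, so the median of Bcl2l1 over mutant IHCs was below that over controls although the group level was above it. The lower quartile of Bcl2l1 was 82.9 CPM in control OHCs and 13.7 CPM in mutant OHCs, and the share of cells at 10 CPM or more was 88.4% (74.9 to 96.1%) and 78.6% (65.6 to 88.4%). The log2 ratio was -0.58 (-0.60 to -0.56) in OHCs and 0.14 (0.11 to 0.16) in IHCs. Among male OHCs Bcl2l1 was 130.0 against 63.7 CPM, and among the female ones it was 165.5 against 103 CPM, lower in mutants in both sets. Among male IHCs it was 87.4 against 28.0 CPM, and among the female ones 107 against 130.5 CPM, so the direction in IHCs differed between the sexes. The 7 male mutant IHCs are few, and whether they share an animal is not known.

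Mcl1 (ENSMUSG00000038612.16, chr3:95658788-95663176, plus strand) encodes a short-lived pro-survival protein whose supply depends on steady transcription and translation. Its level was 39.2 CPM (38.6 to 39.8) in control OHCs, 52.0 CPM (51.4 to 52.5) in mutant OHCs, 34.1 CPM (33.5 to 34.7) in control IHCs and 41.0 CPM (40.3 to 41.6) in mutant IHCs. Single cells ran from 0 CPM of Mcl1 in all 4 groups, over medians of 22.9, 32.6, 19.8 and 32.2 CPM, to 305, 350.3, 141 and 204 CPM in the same order. The share of cells with Mcl1 at 10 CPM or more was close in the 4 groups, at 60.5%, 62.5%, 60.5% and 53.8%. The log2 ratio was 0.41 (0.38 to 0.43) in OHCs and 0.27 (0.23 to 0.30) in IHCs. The direction was not the same in both sexes. Among male cells Mcl1 was 35.3 against 33.9 CPM in OHCs and 39.2 against 34.9 CPM in IHCs, and among female cells 52.1 against 52.5 CPM and 20.7 against 43.3 CPM. Neither sex by itself had an OHC ratio of Mcl1 as large as that over all cells, which include mutant OHCs of neither set.

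Bcl2 (ENSMUSG00000057329.7, chr1:106538178-106714274, minus strand), the founding member of the family, was the pro-survival gene that set inner and outer hair cells apart. Its level was 13.4 CPM (13.0 to 13.7) in control OHCs, 17.1 CPM (16.8 to 17.4) in mutant OHCs, 32.4 CPM (31.8 to 33.0) in control IHCs and 47.7 CPM (47.0 to 48.4) in mutant IHCs. Bcl2 reached 10 CPM in 10 of 43 control OHCs (23.3%, 11.8 to 38.6%) and in 26 of 38 control IHCs (68.4%, 51.3 to 82.5%). It did so in 16 of 56 mutant OHCs (28.6%, 17.3 to 42.2%) and in 16 of 26 mutant IHCs (61.5%, 40.6 to 79.8%). Single cells ran from 0 CPM of Bcl2 in all groups, over medians of 0, 0.193, 28.6 and 47.4 CPM, to 151, 113, 109 and 143 CPM in control OHCs, mutant OHCs, control IHCs and mutant IHCs. The log2 ratio of control OHCs to control IHCs was -1.28 (-1.33 to -1.23), 2.43-fold lower, and control OHCs were lower within each sex, at 11.6 against 25.8 CPM among male cells and 19.2 against 49.7 CPM among female cells. Between genotypes the log2 ratio of Bcl2 was 0.36 (0.31 to 0.40) in OHCs and 0.56 (0.52 to 0.59) in IHCs. In OHCs the sets by sex went opposite ways, with 11.6 against 26.2 CPM among male cells and 19.2 against 13.4 CPM among female cells. In IHCs they were 25.8 against 48.3 CPM and 49.7 against 47.5 CPM.

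Ordered by group level, Bax ran mutant IHC, mutant OHC, control IHC, control OHC, and Bad and Bcl2 had mutant IHC first. Bcl2l1 had control OHC first and Mcl1 mutant OHC first. For each neighbouring pair in the order of these 5 broad genes, the quartile ranges over cells overlapped, and the spread between animals is not known.

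**Figure D3:**
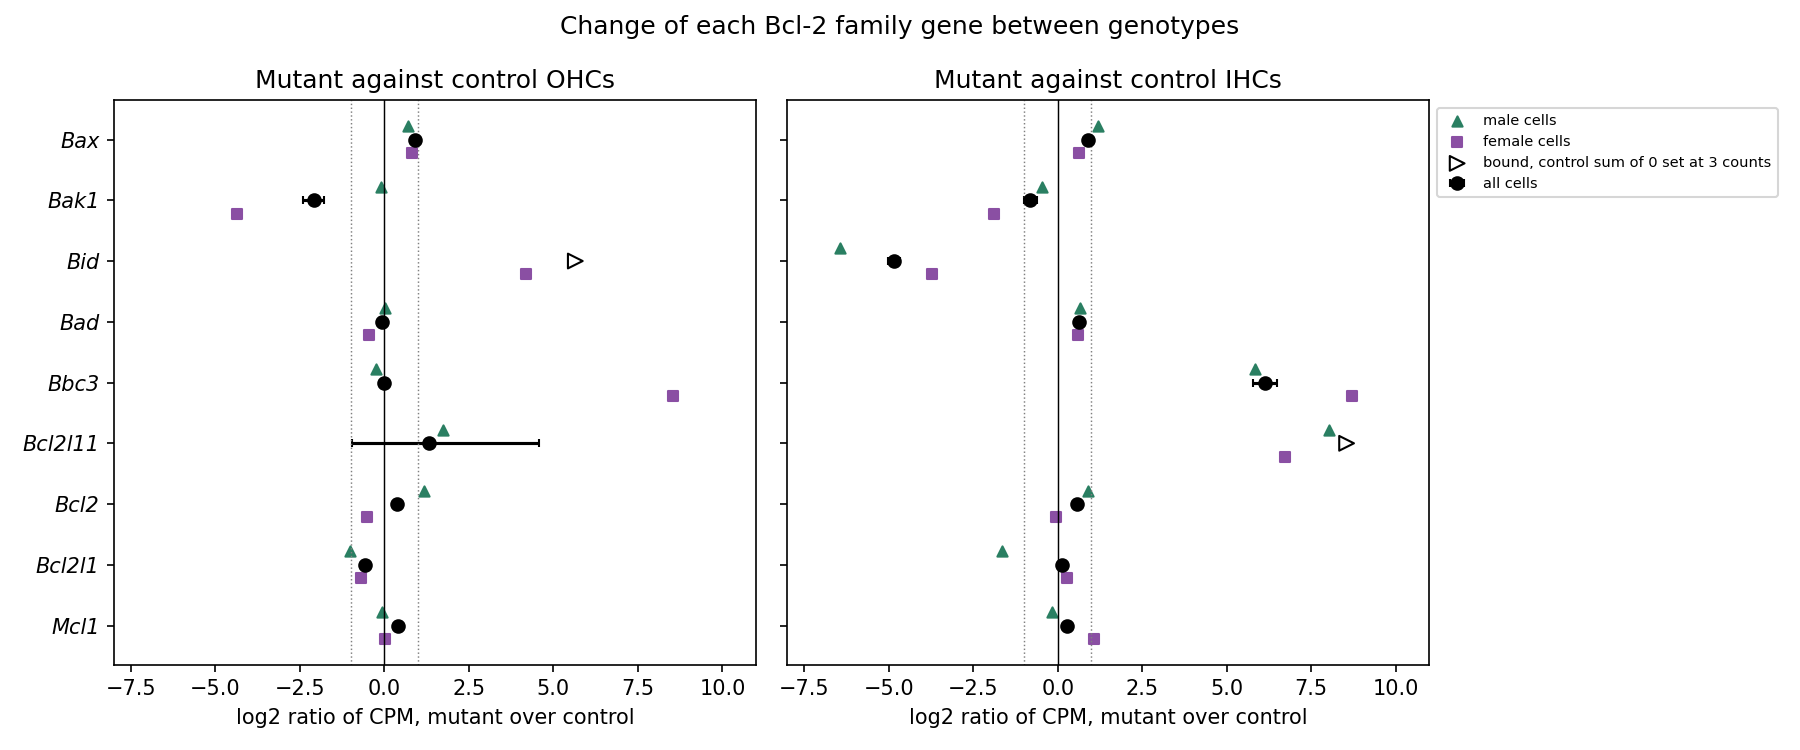
Log2 ratio of CPM, mutant over control, of the 9 genes with reads, in OHCs (left) and IHCs (right). Circles are all cells with 95% counting intervals, open triangles are bounds, and filled triangles and squares are the male and female cells, where a control sum of 0 was also set at 3 counts; dotted lines mark 2-fold. Bax is to the right of 0 in all sets of both cell types, at 0.90 and 0.91 over all cells.

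A 2-fold call was made for genes whose mean level over the groups compared was at least 1 CPM. In mutant OHCs against control OHCs 6 members could be called, and 0 were 2-fold or more higher and 0 lower, against 18.4% and 13.1% of 14588 genes. In mutant IHCs against control IHCs 9 members could be called, of which 2 were higher (Bbc3 and Bcl2l11) and 1 lower (Bid), against 18.8% and 11.7% of 14557 genes, so 3 of 9 members stand beside 30.5% of genes with a call either way. In control OHCs against control IHCs 8 could be called, of which 1 was higher (Bbc3) and 3 lower (Bak1, Bid and Bcl2), against 15.3% and 13.4% of 14445 genes. Bbc3, Bcl2l11 and Bid in the IHC comparison, and Bbc3, Bak1 and Bid between the controls, passed the 1 CPM limit only through their higher group. These counts are therefore description only. The ratio of Bak1 (log2 -1.09) was within 2-fold without the highest cell of each group (-0.81) and among male cells (-0.83). The median log2 ratio of the members that could be called was 0.18, 0.56 and -0.10 in these comparisons, beside 0.06, 0.11 and 0.04 for all genes. Bounds entered these medians at their value, for Bcl2l11 in IHCs and for Bid between the controls. The 2 genotype comparisons share no cells, while control OHCs and control IHCs each enter 2 comparisons.

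The sum of the pro-death members was set against the sum of the pro-survival members per kb of exon. On this scale pro-death transcripts were the larger sum in all 4 groups, and their ratio to the pro-survival sum was higher in mutants than in controls of the same cell type. The order of the sums depends on the division by length: in undivided CPM the pro-death and pro-survival sums were 129 and 191 in control OHCs, 169.9 and 161.5 in mutant OHCs, 156 and 159.5 in control IHCs and 244 and 191 in mutant IHCs, so the pro-survival sum was the larger in both control groups. The ratio was higher in mutants on that scale too, at 0.676 and 1.05 in OHCs and 0.981 and 1.28 in IHCs. The pro-death sum was 63.4 CPM per kb in control OHCs, 90.2 in mutant OHCs, 72.9 in control IHCs and 122 in mutant IHCs. The pro-survival sum was 43.1, 37.2, 33.8 and 39.5 CPM per kb in the same order. The ratio of the sums was thus 1.47 and 2.42 in control and mutant OHCs and 2.16 and 3.09 in control and mutant IHCs. On the log2 scale the balance was 0.72 higher in mutant OHCs and 0.52 higher in mutant IHCs than in their controls, and 0.55 lower in control OHCs than in control IHCs, a difference of -0.55. Bax and Bad made up nearly all of the pro-death sum: Bax was 51.8%, 67.9%, 50.4% and 56.5% of it and Bad 44.7%, 29.8%, 40.0% and 37.4%. Bcl2l1 was 70.0%, 54.1%, 60.0% and 56.4% of the pro-survival sum, and Mcl1 26.6%, 40.8%, 29.5% and 30.4%.

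Over all cells, Bcl2l1 and Bad contributed differently in the cell types. In OHCs the Bax level per kb was higher in mutants (32.8 against 61.3 CPM per kb) and the Bcl2l1 level lower (30.1 against 20.2 CPM per kb), while Bad was nearly level (28.4 and 26.9 CPM per kb). In IHCs Bax (36.7 and 68.9), Bad (29.2 and 45.6) and Bbc3 (0.0919 and 6.42) were each higher in CPM per kb, Bid was lower (6.23 and 0.218), and the pro-survival sum was also slightly higher. That last direction was not the same in both sexes, with a pro-survival sum of 33.4 and 21.6 CPM per kb in control and mutant male IHCs and 34.9 and 46.3 CPM per kb in the female ones. Among male cells Bax was higher and Bcl2l1 lower in mutants of both cell types. In IHCs the gap in balance between the genotypes was 1.54 among male cells and 0.20 among female cells, a difference that was not tested. In OHCs it was 0.99 and 0.77 in the same sets.

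**Figure D4:**
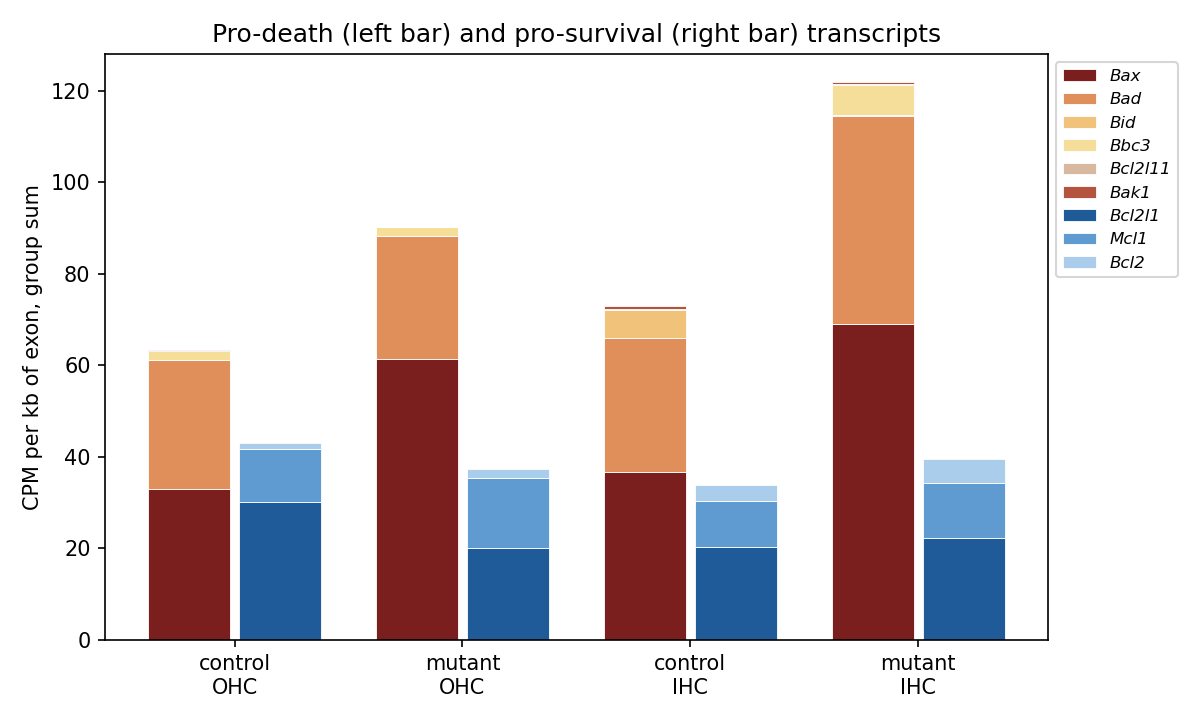
Group level in CPM per kb of exon, stacked by gene, of the pro-death members (left bar) and the pro-survival members (right bar) in each group. The left bars reach 63.4, 90.2, 72.9 and 122 CPM per kb and the right bars 43.1, 37.2, 33.8 and 39.5, with Bax and Bad filling most of the left bars.

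In single cells the pro-death sum exceeded the pro-survival sum in 33 of 43 control OHCs, 47 of 56 mutant OHCs, 32 of 38 control IHCs and all 26 mutant IHCs, all per kb of exon. In undivided CPM this was so in 13, 31, 18 and 17 cells of the same groups. The log2 balance per cell ran from -1.19 over a median of 0.48 to 4.22 in control OHCs and from -2.39 over 1.43 to 12.40 in mutant OHCs. In IHCs it ran from -1.44 over 1.11 to 8.97 in controls and from 0.09 over 1.76 to 10.20 in mutants. The highest values come from cells with almost no pro-survival reads, as the plot of the sums in each cell shows. Counted at 10 CPM or more, 6 of 56 mutant OHCs had none of Bcl2, Bcl2l1 and Mcl1, against 0 of 43 control OHCs, which allows a share of up to 6.98% (3 cells of 43; the exact binomial upper limit is 8.22%), and 1 cell in each IHC group. An effector without any of the 3 was found in 4 of 56 mutant OHCs (7.14%, 1.98 to 17.3%), 1 of 38 control IHCs (2.63%) and 1 of 26 mutant IHCs (3.85%). A missed transcript in a single-cell library gives the same reading as an absent one.

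**Figure D5:**
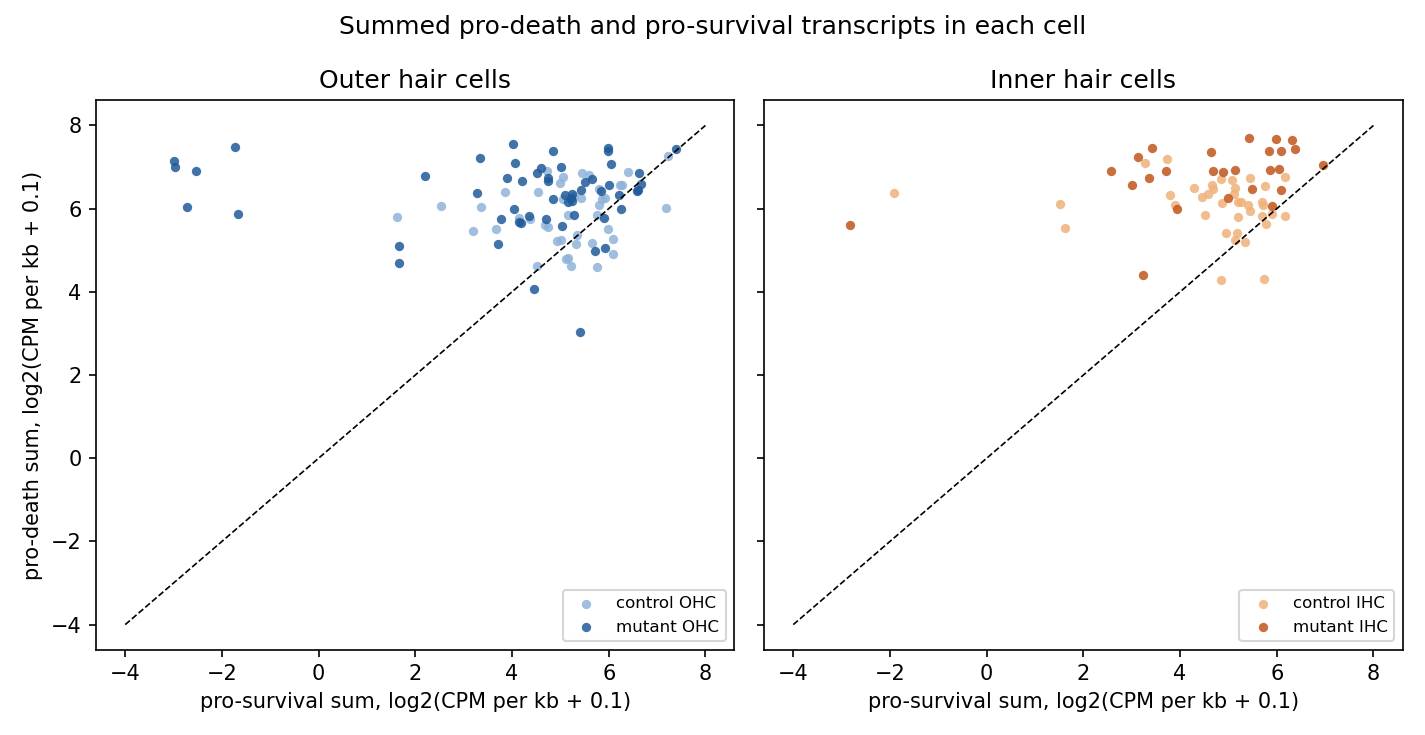
Sum of the pro-death members against the sum of the pro-survival members in each cell, as log2(CPM per kb + 0.1), for OHCs (left) and IHCs (right); the dashed line marks equal sums. All 26 mutant IHCs lie above the line, and 6 mutant OHCs lie far to the left, with none of the 3 pro-survival genes at 10 CPM.

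The typical cell carried 4 of the 10 genes at 10 CPM or more in both OHC groups and in control IHCs, and 4.5 in mutant IHCs, with a range of 1 to 6 over all cells. Bax, Bad and Bcl2l1 were together in 33 of 43 control OHCs, 37 of 56 mutant OHCs, 33 of 38 control IHCs and 19 of 26 mutant IHCs. All 8 mutant IHCs with Bbc3 also had Bax and at least 1 pro-survival gene, as did all 7 mutant OHCs and all 5 control OHCs with Bbc3. Bax was in 26 of 26, 54 of 56 and 39 of 43 cells of these groups, with or without Bbc3. All 3 pro-survival genes were missing in only 1, 6 and 0 cells, so this overlap was nearly fixed in advance. Bcl2 was joined by Bcl2l1 in 8 of 10, 13 of 16, 25 of 26 and 14 of 16 cells with Bcl2 in control OHCs, mutant OHCs, control IHCs and mutant IHCs. With or without Bcl2, Bcl2l1 was in 38 of 43, 44 of 56, 34 of 38 and 21 of 26 cells of these groups. Across the cells of a group, the levels of the members were only weakly related, with Spearman coefficients from -0.43 to 0.31 in control OHCs, -0.18 to 0.26 in mutant OHCs, -0.28 to 0.24 in control IHCs and -0.33 to 0.41 in mutant IHCs. These coefficients describe cells that share depth and library effects, and coefficients this weak in sparse counts are no finding.

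The genes whose level went most closely with each member over the 163 cells, by the mean of the Spearman coefficients within the 4 groups among 9569 genes, were Ccer2 (0.46), Tnc (0.44) and Ly6h (0.44) for Bax. For Bcl2l1 they were Pex6 (0.41), Gpi1 (0.35) and Dctn1 (0.34). For Mcl1 they were 6530403H02Rik (0.36), Tenm4 (0.33) and Tmem176b (0.33). Bcl2 had Mamdc2 (0.33), Slco3a1 (0.33) and Dpysl3 (0.32), and Bad had Rangap1 (0.32), Fam110a (0.31) and Lyrm9 (0.29). Each of these genes was picked as one of the highest of 9569, over cells that share depth and library effects. The coefficients are therefore description only, and the order of the members by them is no finding.

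Of 15 further genes of the family, 9 could be called in each genotype comparison. In OHCs 1 was 2-fold or more higher in mutants and 3 lower, and in IHCs 3 were higher and 0 lower, beside the shares of all genes given above; the median log2 ratio was -0.38 and 0.03. Bik, a BH3-only gene, was higher in both comparisons, at 3.39 against 9.75 CPM in OHCs and 0.209 against 2.16 CPM in IHCs. Among OHCs this was so for male cells (0.257 against 9.455 CPM of Bik) and not for female cells (13.8 against 6.32 CPM). Bik reached 10 CPM in 2 of 43 control OHCs, 11 of 56 mutant OHCs, 1 of 38 control IHCs and 3 of 26 mutant IHCs. A single cell gave 68.9% of the Bik counts of control OHCs, and 1 cell gave 100% of those of control IHCs. Hrk, a BH3-only gene of neurons, was at 32.4 and 45.1 CPM in control and mutant OHCs and at 12.5 and 27.2 CPM in control and mutant IHCs, 2.17-fold higher in the latter (9.715 and 31.5 CPM of Hrk among male IHCs, and 19.8 and 25.6 CPM or 1.29-fold among female IHCs). Bok, an effector-like gene, had 0 counts in both control groups and reached 10 CPM in 2 mutant IHCs and 1 mutant OHC. Of the genes called lower in OHCs, the one at the highest level was Bcl2l14, a family member with a BH3 domain of less settled function, which was at 89.4 CPM in control OHCs and 24.8 CPM in mutant OHCs (log2 ratio -1.85, -1.87 to -1.82). It reached 10 CPM in 34 of 43 control OHCs and 18 of 56 mutant OHCs, and in IHCs it stood at 62.2 and 52.0 CPM. Bcl2l14 was lower in mutant OHCs among male cells (100.6 against 31.4 CPM) and among female cells (52.4 against 23.5 CPM). The other lower genes in OHCs, Bmf (3.78 and 1.33 CPM) and Bcl2l12 (3.14 and 0.274 CPM), were at low levels, and Bmf was 1.37-fold lower among male OHCs (1.89 and 1.38 CPM). Of the Bmf counts of mutant OHCs, 66.7% came from 1 cell. Bcl2l2, the remaining broad pro-survival gene, was at 21.1 and 23.7 CPM in control and mutant OHCs and 19.1 and 18.7 CPM in IHCs.

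Of 19 genes that act before or after the family, 18 could be called in OHCs, with 1 higher and 1 lower. In IHCs all 19 could be called, with 2 higher and 2 lower. Among all genes 18.4% were higher and 13.1% lower in OHCs, and 18.8% and 11.7% in IHCs. The median log2 ratio of the 19 genes was 0.06 in OHCs and 0.21 in IHCs, among those that could be called. Cytochrome c meets Apaf1 to form the platform that activates caspase-9, and Apaf1 was low in all groups, from 0.354 CPM in mutant OHCs to 1.88 CPM in control IHCs. Casp9 itself was at 3.29 and 3.45 CPM in control and mutant OHCs and 5.70 and 1.497 CPM in IHCs. It reached 10 CPM in only 5 of 38 control and 1 of 26 mutant IHCs, with 59.1% and 96.7% of the counts from 1 cell. Cycs, which encodes cytochrome c, was abundant and within 2-fold, at 787 and 584 CPM in OHCs and 592.5 and 489 CPM in IHCs. The caspase inhibitor Xiap was at 51.2 and 21.4 CPM in control and mutant OHCs and at 14.0 and 16.2 CPM in IHCs. Among male OHCs Xiap was at 58.5 and 19.5 CPM, and among female OHCs at 26.8 and 22.35 CPM, 1.20-fold lower. Htra2, which encodes a mitochondrial protease that relieves caspase inhibition, was at 10.5 and 22.0 CPM in control and mutant IHCs, and 25.6% of its exon length overlaps Aup1 on the opposite strand.

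Of the transcription factors that induce BH3-only genes, Trp53 was at 17.1 and 26.4 CPM in control and mutant OHCs and 18.6 and 25.2 CPM in IHCs, within 2-fold. Jun, another transcription factor of the list, was at 373 and 538 CPM in OHCs (1.44-fold) and 416 and 813 CPM in IHCs (1.955-fold), also within 2-fold. Ddit3, which encodes Chop, a factor of the endoplasmic reticulum stress response, was at 65.6 and 59.9 CPM in OHCs and 76.5 and 75.5 CPM in IHCs. Atf4, which acts before Chop in that response, was at 71.2 and 173 CPM in OHCs (2.43-fold) and 96.6 and 190.2 CPM in IHCs (1.97-fold). Among male OHCs Atf4 was at 59.1 and 197.6 CPM, and among female OHCs at 111.5 and 160.4 CPM, 1.44-fold higher. Foxo3 was at 37.7 and 24.3 CPM in control and mutant OHCs but at 6.33 and 17.1 CPM in IHCs, 2.71-fold higher in mutants. Among male IHCs Foxo3 was at 5.77 and 7.57 CPM, 1.31-fold higher, and among female IHCs at 7.78 and 20.8 CPM. Foxo1 was at 3.96 and 0.129 CPM in control and mutant IHCs and 1.77 and 1.20 CPM in OHCs. It reached 10 CPM in 4 of 38 control IHCs, 1 of which gave 54.6% of the counts, and in 0 of 26 mutant IHCs. Among the factors that act on the proteins, Akt1, Ywhaz, Huwe1, Usp9x and Fbxw7 were all within 2-fold in both cell types. Of the genes in these lists that were called, 5 of 6 in OHCs and 6 of 7 in IHCs had the same direction in male and in female cells, and with no limit on low levels 2 of 6 and 4 of 7 were 2-fold or more in both sexes. The exceptions to a shared direction were Bik in OHCs and Bok in IHCs, the latter of which had 0 counts in female IHCs. Bcl2l12 in OHCs, and Bok, Bik and Foxo1 in IHCs, passed the 1 CPM limit only through their higher group. The counts of calls in these lists are therefore description only.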

How the data were processed

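Single hair cells were sequenced, and the deposited table holds raw counts of reads per gene and cell, made by the authors with HISAT2 2.2.1, SAMtools and featureCounts 2.0.1 on mm10, per the submitters' processing notes. Which annotation was counted, on which strand, and what was done with shared reads is not given in the sources used here. Symbols, coordinates and exon lengths came from GENCODE M21 (GRCm38, the same build), which matched 55034 of 55291 identifiers; the others held 0.0128% of counts. The 10 members, the other gene lists and the rule for naming genes were chosen with earlier results of these data known. The rule named all members, the genes of the other lists that passed 2-fold at 1 CPM or more in a genotype comparison, and the 3 genes nearest each member found in at least 20% of cells. Apaf1, Cycs, Bcl2l2, Trp53, Jun, Ddit3, Bcl2l13 and the genes acting on the proteins were named after their values were seen. Some genes of the pathway list were left out of its counts and are not reported here.

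Counts were summed per group and divided by the group total (399570786 counts in control OHCs, 720407678 in mutant OHCs, 348518300 in control IHCs and 364755085 in mutant IHCs), at which 10 CPM has a counting interval of 9.67 to 10.3 CPM or narrower. Intervals are 95% exact Poisson, conditional binomial or, for shares of cells at 10 CPM or more, Clopper-Pearson. A sum of 0 was set at 3 counts for bounds. No test was made, since each group is 1 sample. The ratio calculation was tested on simulated Poisson counts made from the group sums, which hold no spread between cells or animals. Supporting cell markers were Sox2, Prox1, S100a1, Otog, Fabp7, Sparcl1, Epyc, Gjb2 and Gjb6; no doublet caller was run on these hand-picked cells. Alternatives were TMM factors (edgeR 4.0.16), median-of-ratios size factors, totals without mitochondrial genes, means of per-cell CPM, dropping the highest cell per group, sets by sex, by Gm15772 (40 CPM) and by control cell markers, other limits and lengths, and each cell thinned to 5000000 counts. Python 3.11.15, numpy 2.4.6, pandas 2.3.3, scipy 1.17.1 and R 4.3.3 were used.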

Additional observations from a re-analysis of the deposited data

Results flagged for a closer look

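Over all cells, the ratios of Bad and Bcl2l1 lay on opposite sides of 0 in the 2 cell types. The gap between genotypes was small for Bad in OHCs (1.055-fold) and for Bcl2l1 in IHCs (1.10-fold). The median of Bcl2l1 over cells was lower in mutant IHCs (60.2 CPM) than in control IHCs (86.9 CPM), as it was in OHCs. For Bad the log2 ratio of mutant to control was -0.08 in OHCs and 0.64 in IHCs, a difference of -0.72 (-0.75 to -0.69, counting error only). For Bcl2l1 it was -0.58 in OHCs and 0.14 in IHCs, also a difference of -0.72 (-0.74 to -0.69). Neither difference was tested, because each group is 1 sample. Among male cells neither gene went opposite ways, with log2 ratios in OHCs and IHCs of 0.027 and 0.67 for Bad and -1.03 and -1.64 for Bcl2l1, whereas among female cells they were -0.45 and 0.60 for Bad and -0.69 and 0.28 for Bcl2l1. The difference for Bad was below 0 in both sets by sex (-0.65 among male cells and -1.06 among female cells), whereas that for Bcl2l1 was 0.61 among male cells and -0.97 among female cells.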

How the results depend on the processing

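No paired analysis was possible because the results come from no test and replicate numbers only name cells. TMM factors, median-of-ratios size factors, totals without mitochondrial genes and leaving out the 2 control OHCs low in Slc26a5 changed no count of members. Leaving out those OHCs kept the balance within its counting interval, while a change of group total cannot alter the balance. Cells without 10 CPM or more of supporting cell genes other than S100a1 are a set chosen after seeing the data. For each result that moved, the cause was not tested, except where fewer genes or cells were used by construction.

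In OHCs, where 0 members were 2-fold higher or lower in mutants over all cells, 1 was higher among male cells (Bcl2, with 1 lower, Bcl2l1), female cells (Bbc3), cells low in Gm15772 (Bcl2), high in Gm15772 (Bbc3) and without supporting cell transcripts (Bax); with no limit on low members 2 were higher and 1 lower. In IHCs, with 2 higher and 1 lower, 1 was higher without the highest cell of each group and without supporting cell transcripts, and 0 at 10 CPM or more, while 3 were higher in male cells and in cells low in Gm15772 (Bax added) and in female cells (Mcl1 added). There 2 were lower by means of per-cell CPM, in male and in female cells, in those low or high in Gm15772, and without supporting cell transcripts. Of control OHCs against IHCs, 0 were higher among cells high in Gm15772 and at 10 CPM or more, and in female cells the 1 higher member was Mcl1 in place of Bbc3.

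The balance kept its direction in all 3 comparisons under all 14 alternatives. Those that only change the group total (TMM factors, size factors and totals without mitochondrial genes) could not move it, since the total cancels in the balance. For OHC mutants (0.72) it was 0.69 without the highest cells, 0.99 and 0.77 in males and females, 1.01 and 0.61 with low and high Gm15772, 0.86 without supporting cell transcripts, 0.64 without division by length, 0.81 with the longest transcript and 1.10 with Bax and Bak1 alone over the pro-survival genes. For IHC mutants (0.52) it was 0.56 without the highest cells, 1.54 and 0.20 in males and females, 1.45 and 0.35 with low and high Gm15772, 0.43 without supporting cell transcripts, 0.38 without division by length and 0.67 with the effectors alone. For control OHCs against IHCs (-0.55) it was -0.61 in females, -0.64 and -0.42 in the sets by Gm15772, -0.67 without supporting cell transcripts, -0.60 with the longest transcript and -0.52 with the effectors alone.

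The Bak1 ratio in OHCs (-2.10) was 0.085 among cells low in Gm15772, and its OHC minus IHC difference (-1.29) was 0.36 among male cells and 0.71 among cells low in Gm15772. That of Bcl2l1 was 0.47 among cells low in Gm15772. Of 40 shares of cells, 0 left their interval after thinning to 5000000 counts, 4 did at a limit of 1 CPM and 3 at 20 CPM. The smallest set by sex held 7 mutant IHCs.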
